A study of Mus musculus with 2 samples.

Results

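The primary cilium is a microtubule-based antenna that most skin cells can build from the mother centriole, and in the epidermis and hair follicle it is best known for its part in Hedgehog signaling. At its base lies the transition zone, where fibers between the microtubule doublets and the membrane form a gate that decides which proteins enter and leave. The gate is assembled from a module of nephronophthisis (NPHP) proteins, a module of Meckel syndrome (MKS) proteins that includes the tectonics and several membrane proteins, and large scaffolds that hold them. Inherited loss of these genes causes ciliopathies such as Joubert and Meckel syndromes.

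Promoter accessibility was examined for 9 transition zone genes, the scaffold and NPHP-type genes *Cep290*, *Nphp4* and *Rpgrip1l*, the MKS gene *Mks1*, the tectonics *Tctn1*, *Tctn2* and *Tctn3*, and the membrane protein genes *Tmem67* and *Tmem138*. They were listed by name, and a gene's promoter was every accessible region called in both libraries that lay within 500 bp of one of its transcription start sites. All 9 had such a region (11 regions), of 15878 genes with one (18976 regions), among 214119 shared regions in all.

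Single-cell ATAC-seq of mouse embryonic back skin (E16.5) was used, an assay that counts where the Tn5 transposase cuts open chromatin, and the series has 1 Control library and 1 MOF cKO library. The genotype of the second is MOFfl/fl/K14Cre, so that Cre under the Krt14 promoter deletes the histone acetyltransferase MOF in epithelial cells, while the first is labelled just as Control. Both carried the K14-H2BGFP reporter, and GFP-positive and GFP-negative cells were sorted and put back together at 5 parts to 1 by the labels. Neither the embryos pooled nor a second library per genotype is given, so no difference between genotypes was tested. Every interval is a 95% interval for counting error alone and leaves out variation between embryos, sorts and preparations.

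The libraries held 2541 and 4348 barcodes with a median of 62973 and 66239.5 cut sites in peaks, and 21 barcode strings occurred in both. Clusters were named from marker promoters, which gave 1397 Control and 2639 MOF cKO epithelial-like cells (8 to 10 of 10 markers in each cluster) and 659 and 1252 fibroblast-like cells (7 or 8 of 10). Immune-like (46 and 281), mural-like (18 and 69) and endothelial-like cells (9 and 26) were few. Their clusters had 7 or 9 of 10 markers (immune-like), 6 of 9 (mural-like) and 4 of 9 (endothelial-like). The mural-like cluster also had 4 markers of another class and none of its own among its top 10 genes, and the endothelial-like cluster had 2 markers of another class. These 2 names are thus less firm. Cluster 13 (30 and 55 cells) had 5 of 9 melanocyte markers, but its top 10 genes held the melanocyte gene *Dct* beside the Schwann marker *Foxd3* and other glial genes, and it is left without a name. Of the remaining unnamed cells, cluster 9 (299 Control and 5 MOF cKO cells) was shallow with epithelial markers, and cluster 17 (23 and 21 cells) was led by muscle genes. The epithelial-like clusters were split by library. Clusters 1, 5 and 11 held nearly all Control cells, and clusters 0, 2, 3, 14 and 15 the MOF cKO cells. Genotype and cluster therefore cannot be told apart within this class. The fibroblast-like clusters were mixed but unequal, with 81 and 473 cells in cluster 4, 232 and 236 in cluster 6, 3 and 464 in cluster 7 and 343 and 79 in cluster 8 (Control and MOF cKO). The promoter of *Kat8*, which encodes MOF, went from 48.8 CPM (Control) to 36.7 (MOF cKO) in the epithelial-like class, where CPM is the cut sites of a promoter per 1000000 sites in all shared regions of the class. This log2 change of -0.41 is near the median of all promoters (-0.42), and accessibility at the promoter does not report on the floxed exons.

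Many ciliary promoters carry an X-box, the inverted repeat bound by RFX transcription factors, so the promoter sequences were read first. RefSeq windows (GRCm38.p6) from 250 bases before to 50 bases after the start were at hand for 8 of the 9 genes, all but *Tmem67*, in 11 windows. The X-box was searched on both strands as GTNNCC followed, after 0 to 3 bases of any kind, by GGNAAC. It was present in 5 of the 8 genes, in 5 of their 11 windows, against 2.47% of 21262 windows of all coding genes. Each line below gives 1 match in the direction of its gene, with the X-box in capitals, shown because these are the letters the genes share. The match of *Tctn2* has this spelling on the opposite strand only.
Nphp4: cggtgcccGTCTCCTAGGTAACgcgccagc
Mks1: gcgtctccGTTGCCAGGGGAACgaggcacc
Tctn1: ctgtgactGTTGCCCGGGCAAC
Tctn2: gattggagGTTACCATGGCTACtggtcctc
Tctn3: ctcccagcgGTTGCCAGGTAACgggaacca
The matches lie at chr4:152477911-152477924, chr11:87853191-87853204, chr5:122264411-122264424, chr5:124598687-124598700 and chr19:40612359-40612371, in that order, and all 5 fall inside the accessible regions. Those of *Nphp4*, *Mks1*, *Tctn2* and *Tctn3* are upstream of the start of their window and that of *Tctn1* is just downstream. No X-box of this spelling was found in the windows of *Cep290*, *Rpgrip1l* or *Tmem138*. Among further transition zone genes 4 of 15 in the table held one, among basal body and distal appendage genes 1 of 10, and among intraflagellar transport and BBSome genes 5 of 23, beside 2.85% of 17491 coding genes.

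The other letters searched were less particular. CCAAT, the NF-Y box, was present in 4 member genes (*Cep290*, *Nphp4*, *Tctn2*, *Tctn3*) and in 38.2% of all windows. The GC box GGGCGG was in 3 (46.2% of all windows), the ETS site CCGGAAG in *Tmem138* alone (11.6%) and TATAAA in *Tmem138* alone (12.6%). Neither the NRF1 letters GCGCATG (4.80%) nor the YY1 letters AAGATGG (6.24%) occurred in a member window. Median GC content was 60.7% over the 11 member windows and 56.3% over all, with medians of 18 and 13 CpG dinucleotides. From 130 bases before to 20 bases after its start (chr5:124598619-124598768, plus strand) *Tctn2* held the X-box and 4 NF-Y boxes in either orientation, all in capitals.
Tctn2: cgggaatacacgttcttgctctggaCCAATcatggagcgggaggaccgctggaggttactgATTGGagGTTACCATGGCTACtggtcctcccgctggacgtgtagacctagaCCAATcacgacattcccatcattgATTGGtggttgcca

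Most of these genes, 6 of the 9, share a region with another coding gene, compared with 16.3% of all promoter genes on either strand. All 6 partners lie on the opposite strand, but whether the genes of a pair point away from each other was not read. The pairs of starts are *Cep290* and *Tmtc3* (208 bp apart), *Nphp4* and *Kcnab2* (271 bp), *Rpgrip1l* and *Fto* (263 bp), *Tctn3* and *Entpd1* (164 bp), *Tmem67* and *Rbm12b2* (579 bp) and *Tmem138* and *Cyb561a3* (86 bp). Counts in those regions cannot be divided between the genes of a pair. *Mks1*, *Tctn1* and *Tctn2* have their regions to themselves.

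In Control cells, most of these promoters were more open than the typical promoter. Per kilobase of region, *Cep290* had 69.5 CPM in epithelial-like cells and *Nphp4* had 65.5, against a median of 20.7 for all promoter genes. *Tctn1* (52.2), *Tctn3* (50.1), *Rpgrip1l* (42.0), *Tmem138* (40.8) and *Tctn2* (37.2) followed. For *Rpgrip1l* this value averages its main start with a far less open internal region, and the main start alone had 74.4 CPM per kilobase, above *Cep290*. *Mks1* (24.0) and *Tmem67* (20.4) were near the median, at the 56.1 and 49.4 percentiles of all promoters. Intervals overlapped between *Cep290* and *Nphp4*, between *Tctn1* and *Tctn3*, and between *Rpgrip1l* and *Tmem138*, and the other neighbors in this order did not overlap. In MOF cKO epithelial-like cells *Cep290* and *Nphp4* were again first among genes, at 51.8 and 46.3 CPM per kilobase (57.4 for the main start of *Rpgrip1l* alone), and *Mks1* and *Tmem67* last, at 15.4 and 13.1, against a median of 15.9.

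All 9 promoters had sites in every cell class, and the levels of some differed between classes. That of *Tctn2* had 13.6 CPM (7.24 to 23.2, 26 sites) in Control and 9.53 CPM (6.98 to 12.7) in MOF cKO immune-like cells, while it had 34.0 and 22.1 in epithelial-like, 44.2 and 42.3 in fibroblast-like, 42.0 and 38.5 in cluster 13, 51.9 and 41.4 in mural-like and 55.6 and 36.3 in endothelial-like cells. In MOF cKO, the immune-like interval lay below that of each of the other 5 groups of cells. The promoter of *Cep290*, which encodes the coiled-coil protein that bridges microtubules and membrane, was also low in immune-like cells, at 30.8 CPM (20.7 to 44.2) in Control and 36.5 (31.3 to 42.3) in MOF cKO, against 62.5 and 46.5 in epithelial-like and 62.1 and 62.9 in fibroblast-like cells. The other members were not lowest there in either library. In MOF cKO the immune-like interval lay above the epithelial-like one for 7 of 9 genes, as for 72.6% of all promoter genes, and below it for *Tctn2* and *Cep290* (12.3% of all). The median promoter had 29.1 CPM in immune-like and 17.4 in epithelial-like cells of that library. *Tmem67* had 66.2 CPM (59.2 to 73.9) in MOF cKO immune-like cells, above 40.3 (38.1 to 42.6) in fibroblast-like cells, and *Rpgrip1l* had 96.5 (87.9 to 106) against 67.4 (64.6 to 70.4). The intervals of *Nphp4*, *Tctn1* and *Tmem138* were also higher in immune-like cells, those of *Cep290* and *Tctn2* lower, and those of *Mks1* and *Tctn3* overlapped. The median promoter had 25.5 CPM in fibroblast-like cells of that library, and the share of all promoters with such a difference was not counted.

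**Figure D1:**
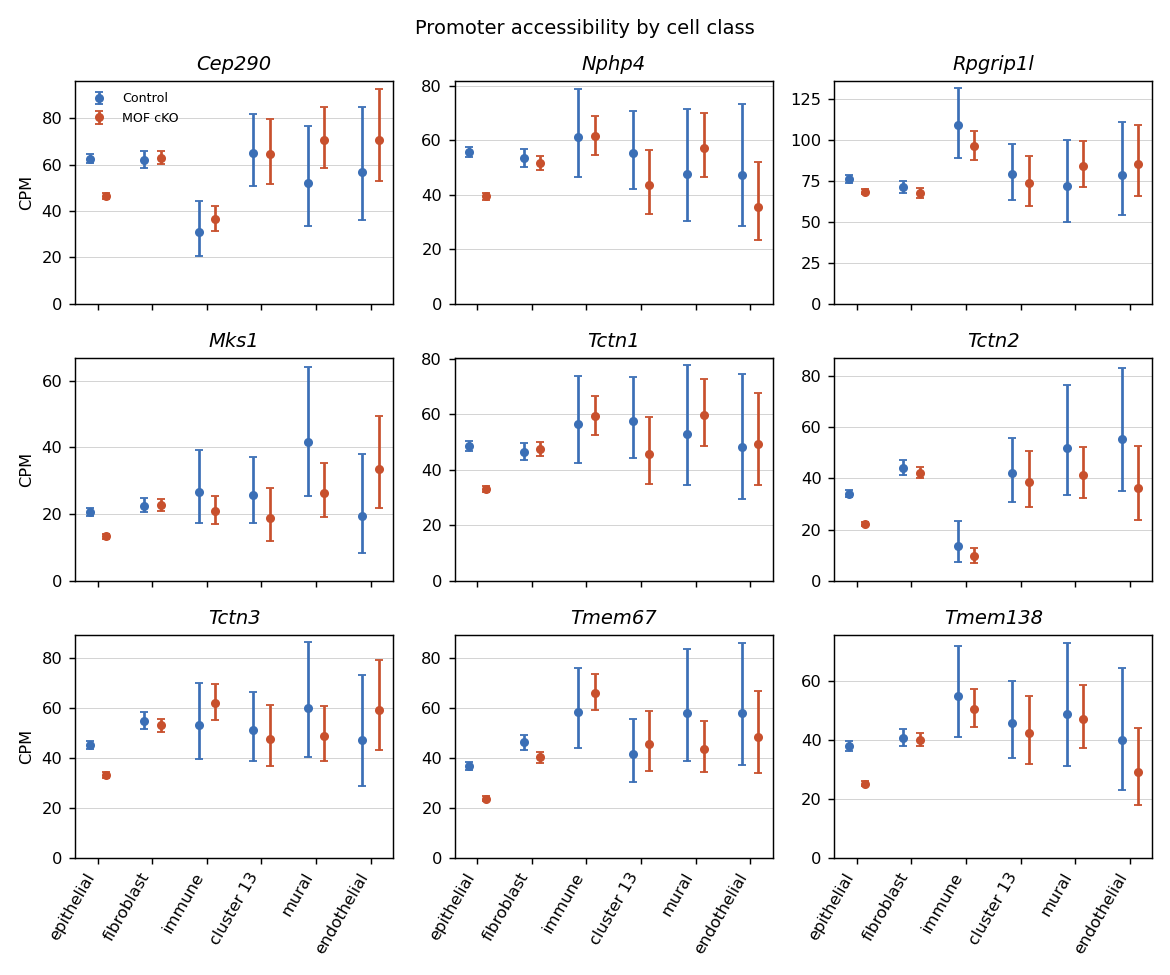
Promoter accessibility (CPM, vertical axis) of each of the 9 genes in 5 named cell classes and cluster 13, Control in blue and MOF cKO in orange, with 95% Poisson intervals for counting error. *Tctn2* and *Cep290* are lowest in immune-like cells, and in epithelial-like cells the MOF cKO point lies below the Control point in all 9 panels.

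Between the main classes of the Control library, 3 promoters were less open in epithelial-like than in fibroblast-like cells beyond counting error, as were 47.5% of all promoter genes. The median promoter itself stood at 22.9 CPM in the epithelial-like class and at 25.9 in the fibroblast-like class. The 3 were *Tctn2* (34.0, 32.6 to 35.6, against 44.2, 41.3 to 47.2), *Tctn3* (45.2, 43.5 to 46.9, against 54.9, 51.7 to 58.3) and *Tmem67* (36.8, 35.2 to 38.4, against 46.3, 43.3 to 49.4). The intervals of the other 6 genes overlapped. CPM divides by the sites of the class, so that a difference in a promoter's share and a difference in all other regions cannot be told apart.

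To ask how these promoters stand without MOF, accessibility was compared between the libraries within each class. In epithelial-like cells all 9 promoters were lower in MOF cKO, where 85.8% of all promoter genes were lower. The median log2 change of the 9 was -0.55, against -0.42 for all promoter genes (quartiles -0.54 and -0.22), and 8 of the 9 lay below that median. With cells thinned to equal depth 6 did, and with each cell counted once per region 5, with member medians 0.05 and 0.04 below that of all promoters in place of 0.14. *Mks1*, *Tctn2*, *Tmem67* and *Tmem138* were at least 1.5-fold lower, 4 of 9 against a background of 18.5%, and no member was 1.5-fold higher (4.33%). Their folds were close to the limit (1.51 to 1.56). The count was 7, 0 or 1 when scaled to every peak of a library, by size factors, or with each cell counted once. The shares of all promoters under these settings were 45.1%, 2.48% and 9.69%, in that order. The whole counting interval lay below 0 for 9 of 9, as it did for 78.6% of all promoters. Relative to the median of all promoters, the changes ran from -0.23 (*Tmem67*) to 0.26 (*Rpgrip1l*). The sites of the 9 genes were also divided by the sites summed over all promoter genes, where a shared region counts for each of its genes. Per 1000 such sites they together had 0.977 (0.965 to 0.989) in Control and 0.943 (0.932 to 0.953) in MOF cKO. By epithelial-like cluster this value ran from 0.936 to 1.01 in Control and from 0.825 to 0.996 in MOF cKO. The cluster values of the libraries thus overlapped.

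**Figure D2:**
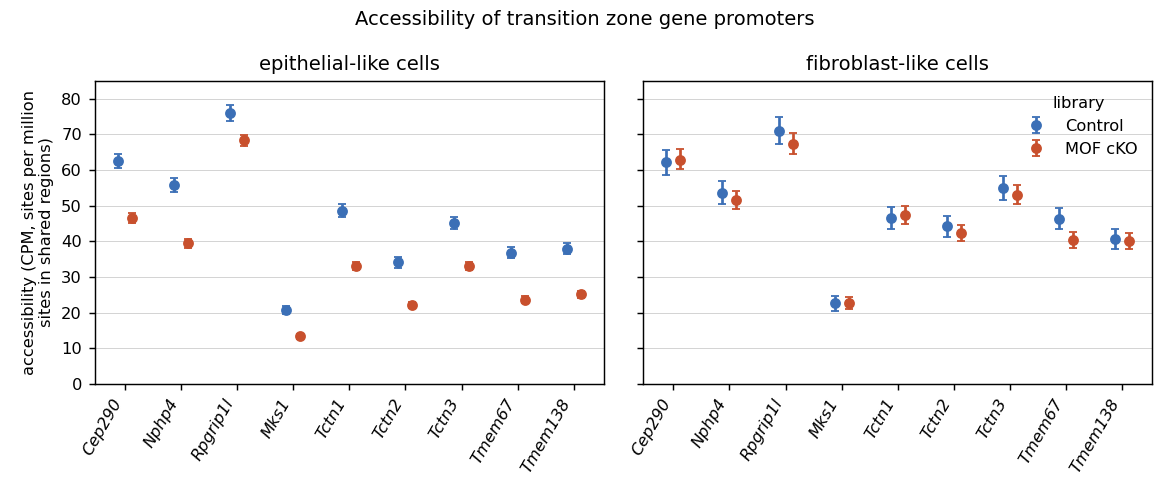
Accessibility (CPM, vertical axis) of the 9 promoters in epithelial-like (left) and fibroblast-like cells (right), Control in blue and MOF cKO in orange, with 95% counting intervals. On the left the intervals of the libraries are apart for every gene. On the right they overlap for 8 of the 9, all but *Tmem67*.

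Of the scaffold and NPHP-type genes, *Cep290* (region chr10:100486983-100487881, over an exon at its start) had 62.5 CPM (60.5 to 64.6) in epithelial-like cells of Control and 46.5 (45.2 to 47.9) in those of MOF cKO. Its log2 change of -0.43 (-0.49 to -0.36) was at the 48.0 percentile of all promoters, the middle of the distribution. *Nphp4*, a protein of the NPHP module, had 55.8 CPM (53.9 to 57.7) in Control and 39.4 (38.2 to 40.6) in MOF cKO, a change of -0.50 (-0.57 to -0.43). Its region, chr4:152477268-152478118, ends 24 bp before the coding transcript start that assigned it to the gene. A RefSeq window of the gene, chr4:152477488-152477787, lies wholly inside the region. *Rpgrip1l*, the scaffold on which the NPHP and MKS modules depend, moved least, from 75.9 CPM (73.7 to 78.2) to 68.3 (66.8 to 69.9), a change of -0.15 (-0.21 to -0.10) at the 79.5 percentile. This small value was the sum of a pair of unlike regions, described further on.

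*Mks1*, a B9-domain protein of the MKS module, had 20.7 CPM (19.5 to 21.9) in Control and 13.3 (12.6 to 14.03) in MOF cKO (chr11:87852809-87853670, over the start, with UTR and coding exon). Its change of -0.64 (-0.75 to -0.52) was at the 13.4 percentile, and the gene shares its region with no other coding gene.

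The tectonics, extracellular-facing glycoproteins of the MKS module, spanned a range of changes. *Tctn2* (chr5:124598247-124599160) went from 34.0 CPM (32.6 to 35.6) in Control to 22.1 (21.2 to 23.0) in MOF cKO, a log2 change of -0.62 (-0.71 to -0.53). *Tctn1* (chr5:122263914-122264845) had 48.6 CPM (46.8 to 50.4) and 33.1 (32.0 to 34.2), a change of -0.55 (-0.63 to -0.48). *Tctn3* (chr19:40611857-40612757) had 45.2 CPM (43.5 to 46.9) and 33.1 (32.0 to 34.2), a change of -0.45 (-0.52 to -0.38). The interval of *Tctn3* did not reach that of *Tctn2*, while *Tctn1* overlapped both. All 3 tectonics hold an X-box, as do *Mks1* (-0.64) and *Nphp4* (-0.50). The members without one in their windows were *Cep290* (-0.43), *Rpgrip1l* (-0.15) and *Tmem138* (-0.59). Over all promoter genes with a RefSeq window, the median epithelial change was -0.43 for 419 genes with an X-box and -0.42 for 11793 without, and 17.4% and 18.3% were at least 1.5-fold lower. That comparison was chosen after the values were seen, and a part of the X-box in the change was not tested.

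Among the membrane proteins, *Tmem67* (meckelin) went from 36.8 CPM (35.2 to 38.4) to 23.6 (22.7 to 24.6), a change of -0.64 (-0.73 to -0.56), level with *Mks1*. It has 2 regions. The one over its downstream start, chr4:12087386-12088339, went from 19.8 to 11.7 CPM (-0.75). The other, chr4:12088937-12089786, went from 17.0 to 11.9 CPM (-0.52). It lies 234 bp from the upstream start next to *Rbm12b2*, where the gene record begins. *Tmem138*, a small membrane protein with several transmembrane spans, had 37.9 CPM (36.3 to 39.5) and 25.1 (24.2 to 26.1), a change of -0.59 (-0.68 to -0.51), in a region (chr19:10576822-10577750) shared with *Cyb561a3*.

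**Figure D3:**
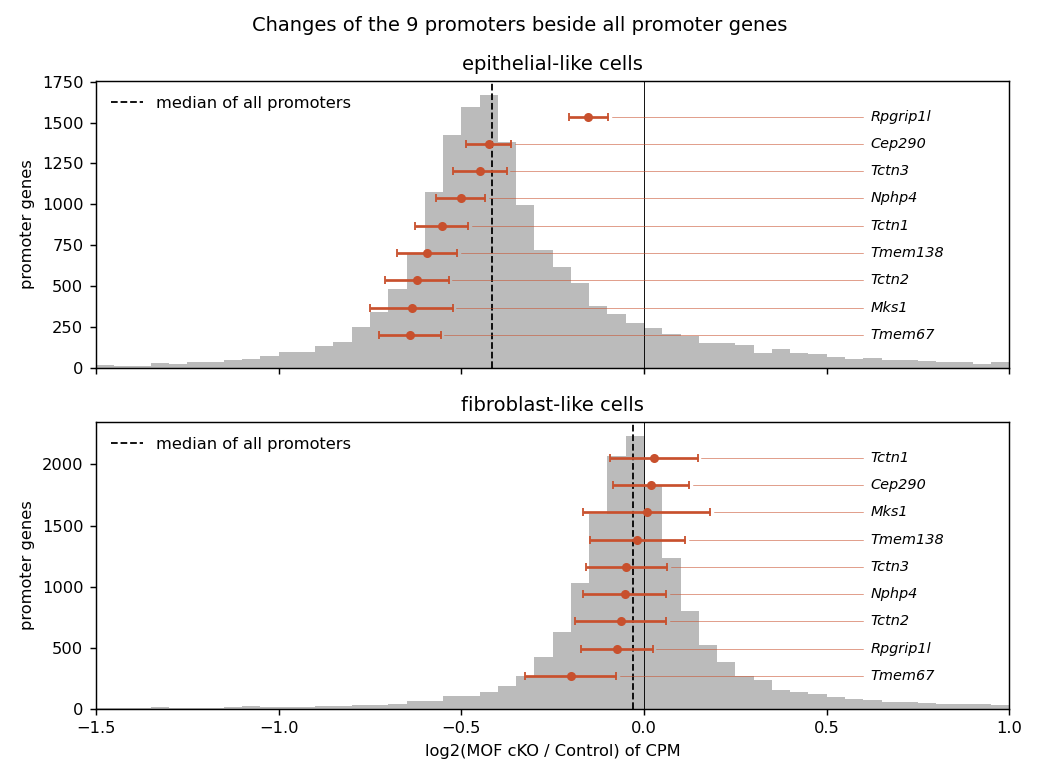
Log2 ratios of MOF cKO to Control CPM (horizontal axis) of the 9 promoters (orange, with 95% counting intervals) over the histogram of all promoter genes (gray, number of genes on the vertical axis), for epithelial-like (top) and fibroblast-like cells (bottom). In epithelial-like cells 8 of the 9 lie left of the dashed median of all promoters at -0.42, with *Rpgrip1l* to its right, and in fibroblast-like cells they scatter around -0.03.

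In fibroblast-like cells, in which the Krt14 promoter is not known to be active, the median change of the same promoters was -0.05, against -0.03 for all promoters. The libraries fill the clusters of this class unequally, and the part of that in the value was not tested. The median was -0.33 per cell with no total (-0.31 for all), 0.03 with thinned cells (-0.025) and 0.070 with each cell counted once (0.028). With thinned cells and with each cell counted once the members thus lay above all promoters. As CPM, 6 of 9 were lower beside 58.6% of all. None was 1.5-fold lower (background 2.51%) and none 1.5-fold higher (4.44%). *Tmem67* had the lowest change, from 46.3 CPM (43.3 to 49.4) in Control to 40.3 (38.1 to 42.6) in MOF cKO, a change of -0.20 (-0.32 to -0.08), and the only member interval that left out 0, where 18% of all promoters had an interval wholly below it. *Tctn1* was highest at 0.03 (-0.09 to 0.15).

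The change was lower in epithelial-like than in fibroblast-like cells for 9 of 9 members, and for 85.6% of all promoter genes. With size factors, per cell, or with each cell counted once it was 8 of 9, without *Rpgrip1l* as the sum of its regions. The share of all promoter genes under these settings was not counted. The difference between the classes was largest for *Mks1*, at -0.64 (-0.85 to -0.44), and its interval lay below 0 for 8 genes, beside 70.2% of all promoter genes. The exception was *Rpgrip1l*, at -0.08 (-0.19 to 0.03), a value that sums its main start and an internal region. At the main start alone the epithelial-like change was -0.38 (-0.44 to -0.32). The fibroblast-like change there was -0.07 (-0.17 to 0.03), and these intervals did not overlap. As CPM, the main start of *Rpgrip1l* thus also had the larger fall in the epithelial-like class. This need not hold with size factors, which were not applied to the main start alone. The median difference was -0.45 for members and -0.39 for all promoters. In immune-like cells the member median was 0.01, with 4 of 9 lower beside 52% of all promoters. In cluster 13 it was -0.11, with 8 of 9 lower beside 50.1% of all. Mural-like cells had a member median of -0.05, with 5 lower beside 51.2%. Endothelial-like cells had 0.02, with 4 lower beside 62.7%. No member interval left out 0 in immune-like cells, cluster 13, mural-like or endothelial-like cells. The whole interval lay below 0 for 6.18%, 3.11%, 3.14% and 5.83% of all promoters in these, in that order. The counts there allow only large changes to be seen. For *Tctn2* in immune-like cells, for example, the log2 change was -0.51 with an interval from -1.42 to 0.50.

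*Rpgrip1l* was the one member whose regions moved in opposite directions. At its main start, in the region shared with *Fto* (chr8:91312969-91313882), accessibility went from 68.0 CPM (65.9 to 70.2) to 52.4 (51.0 to 53.8) in epithelial-like cells. The change of -0.38 (-0.44 to -0.32) was a smaller fall than in any other member and just above the all-promoter median of -0.42. Its interval overlapped those of *Cep290*, *Nphp4* and *Tctn3*. Its other region lies inside the gene, chr8:91270319-91271213, over an exon at the start of an annotated transcript fragment whose true 5′ end was not found. There accessibility was 7.88 CPM (7.18 to 8.64) in Control and 15.9 (15.2 to 16.7) in MOF cKO, a log2 change of 1.01 (0.86 to 1.17), at the 83.5 percentile of all shared regions, whose median was -0.15.

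The internal region had few sites outside epithelial-like cells. Fibroblast-like cells had 36 sites in Control (0.91 CPM, 0.54 to 1.44) and 37 in MOF cKO (0.60 CPM, 0.36 to 0.94), immune-like cells 0 and 13, cells of cluster 13 0 and 1, mural-like cells 0 and 2 and endothelial-like cells 0 and 0. In Control immune-like cells, 0 sites leave room for up to 3.86 CPM. The main start had 70.1 and 66.8 CPM in fibroblast-like cells and 109 and 95.1 in immune-like cells. Within the epithelial-like class the internal region varied between clusters of 1 library. It had 12.05 CPM (10.8 to 13.4) in Control cluster 1, 3.74 (2.96 to 4.66) in cluster 5 and 4.90 (3.59 to 6.53) in cluster 11. The Control cells of unnamed cluster 9, shallow with epithelial markers, had 18 sites there, at 14.3 CPM (6.52 to 27.1). The MOF cKO clusters had 17.6 (cluster 0), 12.3 (10.97 to 13.7, cluster 2), 18.0 (cluster 3), 12.5 (9.83 to 15.8, cluster 14) and 20.6 CPM (11.3 to 34.6, cluster 15). The interval of Control cluster 1 thus overlaps those of MOF cKO clusters 2, 14 and 15, and the part of cluster make-up in the ratio was not tested.

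The central 300 bases of the internal region hold the letters TGANTCA, the AP-1 site, as do 21.0% of the 214119 shared regions, while none of the other 10 member regions does in its central 300 bases. The letters were chosen after the values of the region were seen. They are shown in capitals in their context on the plus strand, chr8:91270873-91270902, with the motif at chr8:91270884-91270890.
Rpgrip1l: aacaagaaagaTGAGTCAgagctgaggtca

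**Figure D4:**
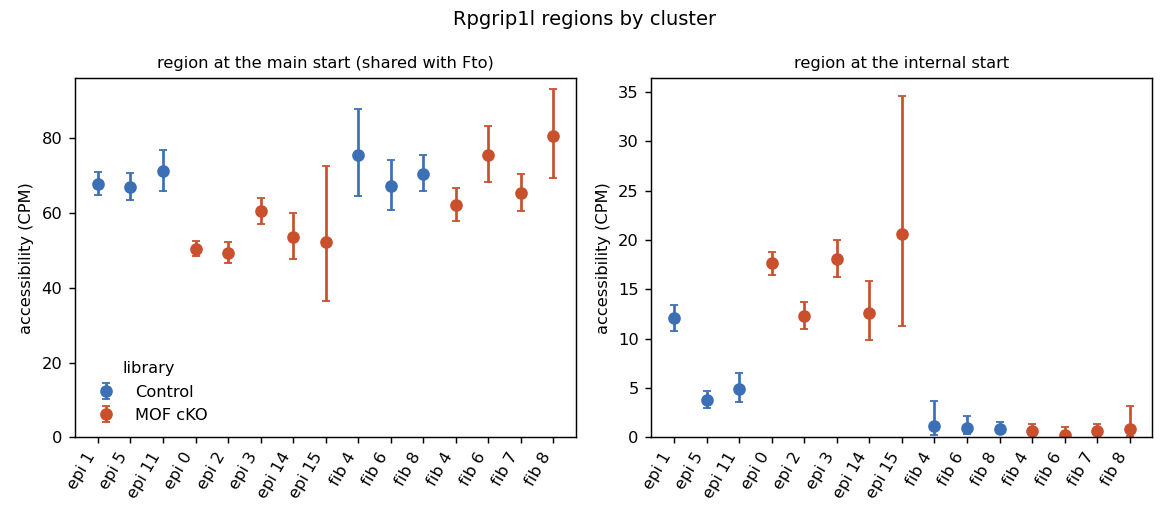
Accessibility (CPM, vertical axis) of the *Rpgrip1l* regions at the main start (left) and at the start of an internal transcript fragment (right, labelled internal start). Shown is each epithelial-like (epi) and fibroblast-like (fib) cluster with at least 50 cells of a library. Control is in blue and MOF cKO in orange, with 95% counting intervals. On the left the MOF cKO epithelial-like clusters sit at 49.4 to 60.4 and the Control ones at 67.0 to 71.2. On the right fibroblast-like clusters are near 0, and Control cluster 1 (12.05) lies beside MOF cKO cluster 2 (12.3).

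Summed over the 9 genes, accessibility in epithelial-like cells was 417 CPM (412 to 423) in Control and 305 (301 to 308) in MOF cKO, and in fibroblast-like cells 442 (432 to 451) and 428 (420 to 435). Within fibroblast-like clusters the difference went both ways, from 469 in Control to 400.4 in MOF cKO in cluster 4, from 453 to 462 in cluster 6 and from 431 to 449 in cluster 8, so the pooled fibroblast-like values mix clusters of unequal make-up. Per 1000 sites summed over promoter genes, the value fell from 0.949 to 0.898 in cluster 4 and from 0.948 to 0.919 in cluster 6. In cluster 8 it rose from 0.923 to 0.972. By cluster, the Control epithelial-like sums were 408, 421 and 426. The MOF cKO sums were 287 to 337 in clusters 0, 2, 3 and 14, and 406 in cluster 15, next to the lowest Control cluster. Per 1000 sites summed over promoter genes, cluster 15 was instead the lowest epithelial-like cluster, at 0.825, against 0.936 to 1.01 in Control. Cluster 15, with 68 cells, was shallow, with a median of 16889 sites. It had 43.4% of its sites in promoter regions, where the other MOF cKO clusters had 27.7 to 32.4% and the Control clusters 36.9 to 39.0%. The part of depth in its value was not tested. Clusters 11 and 14 had high doublet scores, with medians of 0.88 and 0.92, and without them the median member change was -0.58.

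Single cells were compared at equal depth, since a deeper cell shows more open promoters. After each cell was thinned to 5000 sites, leaving out 14 Control and 39 MOF cKO epithelial-like cells below that depth, a mean of 1.70 of the 9 promoters had a site per Control cell and 1.31 per MOF cKO cell. Summed over the thinned cells, the median member change was -0.44 and that of all promoters -0.40. Cells with none of the 9 made up 15.2% and 23.1%, and cells with 3 or more 23.6% and 12.4%. In fibroblast-like cells the means were 1.85 and 1.83, with 12.7% of cells at none in both libraries. *Cep290* had a site in 25.4% of the Control cells and 18.5% of the MOF cKO cells of the epithelial-like class, and *Mks1* in 8.97% and 5.81%. Before thinning these shares were 83.7% and 74.5% for *Cep290* and 51.8% and 36.9% for *Mks1*. Promoters of immune marker genes, which these cells should not use, had a site in 1.27% and 1.67% of the thinned epithelial-like cells, averaged over 10 markers.

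**Figure D5:**
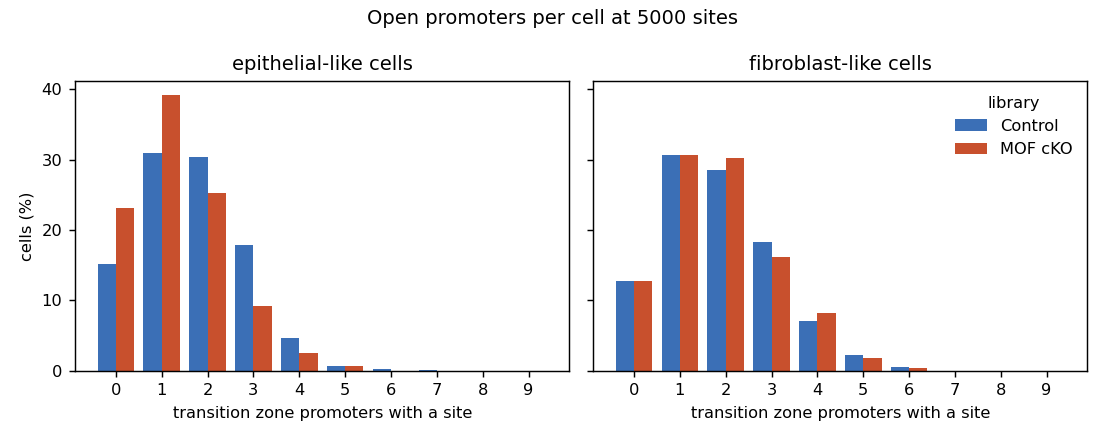
Percent of cells (vertical axis) by the number of the 9 promoters with at least 1 site (horizontal axis) after thinning to 5000 sites, for epithelial-like (left) and fibroblast-like cells (right), Control in blue and MOF cKO in orange. On the left the MOF cKO bars are higher at 0 (23.1% against 15.2%) and lower at 3 (9.19% against 17.9%), while on the right they nearly coincide.

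Of 18 further transition zone genes 17 had a promoter value (*Rpgrip1* had none), and their median epithelial change was -0.49, with 17 of 17 lower (beside 85.8% of all) and 4 at least 1.5-fold lower (23.5%, beside 18.5% of all). *Tmem218*, a transition zone membrane protein, was lowest, from 54.3 to 32.0 CPM, a change of -0.76 (-0.83 to -0.69). At the other end stood *Tmem231*, another MKS membrane protein, at -0.28 (-0.36 to -0.20), and *Cspp1*, a microtubule-associated protein whose region is shared with *Cops5*, at -0.31 (-0.37 to -0.25).

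Basal body and distal appendage genes, which dock the centriole, had a median of -0.43 over the 11 matched of 12 listed symbols. All 11 were lower (beside 85.8% of all) and 0 at least 1.5-fold lower (beside 18.5%). Intraflagellar transport and BBSome genes, the cargo machinery, had a median of -0.45 over 26 genes, with 25 lower and 6 at least 1.5-fold lower (23.1%), against the same shares of all promoters. In fibroblast-like cells the medians of the 3 lists were -0.06, -0.01 and -0.06. The lists overlap the all-promoter distribution widely, and whether they differ from it was not tested.

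Among the promoters most like the mean of the 9 over 8 points, the epithelial-like, fibroblast-like, immune-like and cluster 13 cells of each library, were those of *Cdc25b*, a cell cycle phosphatase (Pearson r = 0.987 over log2 CPM), *Dnajb4*, a heat shock co-chaperone (0.984), *Extl3*, an enzyme of heparan sulfate synthesis (0.981), and *Leprot* (0.976). They were among the highest of 7609 genes with at least 50 sites at each point, of which 216 had r above 0.9. The points share 2 libraries and differ widely in depth, so r is only a description. The members themselves, each a part of that mean, ranged from 0.24 (*Rpgrip1l*) to 0.90 (*Mks1*). Only 7 of the 9 had at least 50 sites at every point, and *Mks1*, with 49 in cluster 13 of MOF cKO, was not among them.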

How the data were processed

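The authors ran cellranger-atac 2.0.0 on mm10 (GRCm38) and deposited unnormalised counts, 1 table of Tn5 cut sites by peak and barcode for each library, with peaks and cells called per library. Of the values, 88.8% and 91.6% were even, as 1 fragment tends to put both its ends in the same peak, so intervals used fragments (sites divided by 2). Peaks of both libraries were merged, and regions with a peak from each were kept. Starts were those of coding transcripts in GENCODE vM21, and *Tctn2*, whose record there is not typed as coding, was added. Barcodes with at least 1000 sites were clustered (30 singular vectors less those correlated with depth, 20 neighbors, Leiden resolution 1) and named from fixed markers. Sites were summed per class and library and divided by the sites in shared regions (CPM). A gene was the sum of its regions, used where the libraries together had 20 or more sites. Intervals were exact Poisson for levels and exact conditional binomial for ratios. With 1 library per genotype no test was run, and "called" means 1.5-fold. Doublets were scored against simulated pairs and kept, and left out in an alternative.

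The genes, lists and motifs were chosen with earlier results of these data known. Named were all 9 members, coding genes starting within 500 bp of their regions, the 2 lowest and 2 highest further transition zone genes, and the 5 genes most like the member mean, except that the values of 2 of these are not reported here. The scripts used Python 3.11.15, numpy 2.4.6, scipy 1.17.1, scikit-learn 1.9.0 and leidenalg 0.10.2. The calculation was tested on simulated data with known fold changes.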

Additional observations from a re-analysis of the deposited data

How the results depend on the processing

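The median epithelial-like change of the 9 promoters was -0.55, and stayed below 0 under every alternative run. It was -0.70 when scaled to every peak a library has, -0.14 when scaled by size factors (median of ratios over promoters), -0.64 per cell with no total, -0.44 with cells thinned to 5000 sites and -0.34 with each cell counted once per region. The size factors set the median of all promoters to 0 in place of -0.42. A change of total moves every promoter alike, so the members' distance of -0.14 from the all-promoter median could not change with it. That distance was -0.05 with thinned cells and -0.04 with cells counted once, where 6 and 5 members were below the median. The count at least 1.5-fold lower, 4 of 9, became 7 with every peak, 0 with size factors and 1 with cells counted once, beside 45.1%, 2.48% and 9.69% of all promoters. *Rpgrip1l* reversed in epithelial-like cells, to 0.26 with size factors and 0.068 with cells counted once, and was -0.38 with its gene record start alone. *Nphp4* had no value under that last choice. The fibroblast-like median of -0.05 was -0.33 per cell and 0.070 with cells counted once (-0.31 and 0.028 for all promoters). The mean number of open promoters per thinned epithelial-like cell differed by -0.39, by -0.25 at 3000 sites and by -0.65 at 10000. Depth, the sort and the embryo cannot be separated from genotype with 1 library each. The alternative without clusters of high doublet score was chosen after seeing the data. No paired analysis was possible because each group has 1 sample.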
